A study of Mus musculus with 6 samples.

Results

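Imprinted genes are expressed mainly from a single parental copy, set by methylation marks laid down in the egg or sperm, and many of them act on growth of the embryo and placenta. Several paternally expressed genes, such as Igf2, promote growth, and several maternally expressed genes, such as Igf2r, Cdkn1c, Phlda2 and Grb10, restrain it. In the embryo at midgestation many imprinted genes are abundant in mesoderm. Their levels were read here in presomitic mesoderm and somites with and without Paraxis, the basic helix-loop-helix factor encoded by Tcf15 that somites need to form an epithelium. The set held 36 imprinted genes, found by the gene name of their probes among 19391 genes tested. A probe of that name was present for 34 of them, with 76 probes in all. Rtl1 and Dcn1 had none, and Rtl1 was also not found through its accession or synonyms. Of the 34 genes, 33 had a probe above background and were tested. Rasgrf1, with 4 probes, was above background in at most 1 of 6 measurements of a genotype. Each member was assigned to a class by the copy it expresses where it is imprinted, which need not be the tissue dissected here. Of the tested members 20 were classed as paternal and 12 as maternal, and Gnas differs between its transcripts. The arrays read total RNA and do not tell the parental copies apart.

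The study compared WT mice with Paraxis-/- mice, both of strain C57BL/6J and both taken at embryonic day 9.5. Anterior presomitic mesoderm and somites I to IV of 5 embryos were combined into a pool, with 3 such pools per genotype. A WT pool and a Paraxis-/- pool shared an array and were labelled with both dye orientations, which gave 6 two-colour arrays and 3 pairs (A, B and C, named after the WT pool). By the array titles, WT pool B was paired with Paraxis-/- pool C and WT pool C with Paraxis-/- pool B. The 3 pairs are the replicates. All embryos of a pool were mixed, so variation between embryos was not measured. Slide 1 carried pair A, and slide 2 carried the other pairs, so pair A and its slide cannot be told apart.

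Between 27080 and 31795 spots per array were above background in a genotype's channel. Tcf15 itself was lower by a mean log2 ratio of -5.41 in Paraxis-/- pools. In the fit of all genes with limma, 6 of 19391 genes (0.0309%) passed an adjusted p of 0.05, 3 in each direction. Paraxial mesoderm markers were present, with 11 of 12 tested. In what follows, a ratio is the log2 of Paraxis-/- over WT, and a level is the log2 spot signal of 1 pool. Levels are compared within a probe only.

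No imprinted gene passed the adjusted p of 0.05 in limma. At an unadjusted p under 0.05, 2 of the 33 members were called, H19 and Ndn, both lower, beside 5.01% of all genes in either direction and 2.72% in the lower direction. Their unadjusted limma p-values were 0.0074 and 0.031. The mean ratio was at least 1.5-fold for Phlda2 (higher) and H19 (lower), beside 0.423% of all genes higher and 0.474% lower. Ratios had the same sign in all 3 pairs for 9 members, 2 higher (13.5% of all genes) and 7 lower (12.2%). Pools of the genotypes did not overlap for Slc22a18, higher (3.18% of all genes). As read they also did not overlap for Mest, lower (2.94%), but its spot was saturated in pair A, so the order of its pools is not settled. The median ratio of the 33 members was -0.05, beside 0.00 for all genes. The spread between pairs was wide: the SD over the 3 pairs exceeded the size of the mean ratio in 27 of 33 members and in 77.8% of all genes. The median SD was 0.23 for the members and 0.14 for all genes, and 11 members lay above the 90th percentile of all genes, an SD of 0.35. Those 11 were Phlda2, Dlk1, Peg3, Dio3, Cdkn1c, Gnas, Peg10, Plagl1, Meg3, Usp29 and Grb10.

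**Figure D1:**
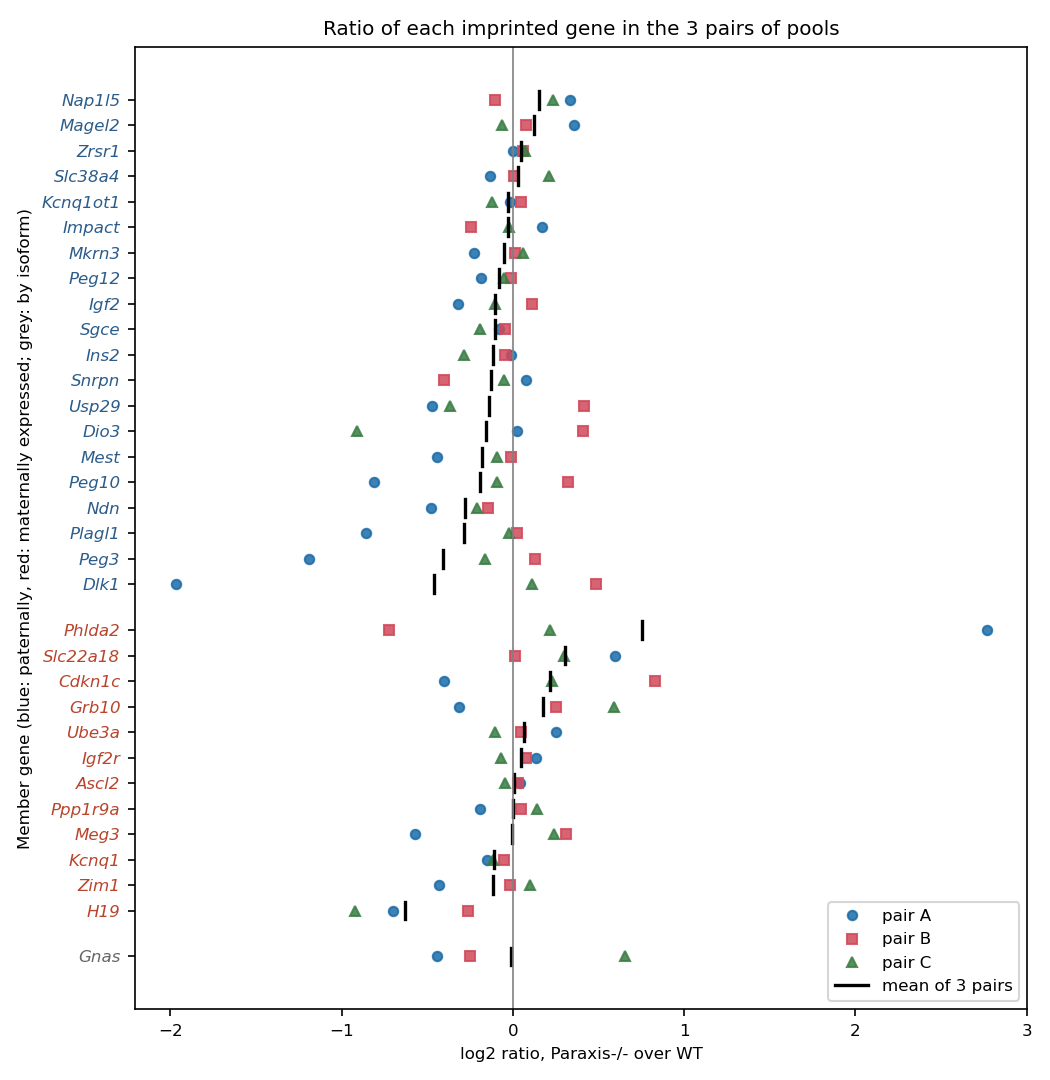
Log2 ratio of Paraxis-/- over WT (x axis) of each of the 33 tested imprinted genes (y axis) in pair A (circles), pair B (squares) and pair C (triangles), with the mean of the 3 pairs as a bar. Phlda2 reaches 2.77 and Dlk1 -1.97 in pair A, while most other points lie close to 0.

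The probes of H19 and Meg3 are shown because the result rests on them. Both H19 probes read the same way, and the Meg3 probes split by transcript in pair C. All these probes are 60 bases long, given as deposited in the file of the first slide, with positions in mm9. Which exon or intron each lies in was not analysed here. H19 is a maternally expressed noncoding RNA of the locus that also holds Igf2. Its probes are on the minus strand, at chr7:149761769-149761828 and chr7:149762018-149762165.

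H19 probe 1: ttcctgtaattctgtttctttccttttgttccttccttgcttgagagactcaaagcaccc
H19 probe 2: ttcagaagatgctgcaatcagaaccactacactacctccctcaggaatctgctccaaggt

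H19 read 15.44, 14.60 and 14.37 in the WT pools of pairs A, B and C. In the Paraxis-/- pools it read 14.75, 14.34 and 13.44. The Paraxis-/- pool was the lower one in every pair, but the genotypes overlapped, since the Paraxis-/- pool of pair A lay above the WT pools of pairs B and C. The ratios were -0.70, -0.26 and -0.92, with a mean of -0.63 (SE 0.14, n = 3 pairs, 1.55-fold lower, adjusted p = 0.75). The second probe gave -0.89, -0.40 and -1.46. Averaged over the dye orientations, both probes thus read lower in the Paraxis-/- pool of every pair. The dye orientations of pairs A and B differed. At the first probe the ratios were -0.12 and -0.03 with WT in Cy5, and -1.28 and -0.49 with Paraxis-/- in Cy5. Those of pair C were both -0.92. The second probe gave 0.01 and -0.07 in pairs A and B with WT in Cy5. The lower reading of pairs A and B thus rested mostly on the arrays with Paraxis-/- in Cy5. In bulk tissue, fewer cells of a type and less RNA per cell cannot be told apart, here or below.

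Igf2 encodes the growth factor that shares its enhancers with H19 and is expressed from the paternal copy. It read 16.15, 15.83 and 15.94 in the WT pools and 15.83, 15.94 and 15.84 in the Paraxis-/- pools. The WT pool of pair A was the highest and the other pools lay close together. The mean ratio was -0.10 (SE 0.10, n = 3 pairs, adjusted p = 0.96). On each array of slide 1, 8 of its 10 spots were saturated in the Cy5 channel, so its signal there is only a lower bound. With saturated spots left out, only pairs B and C gave a value, with a mean of 0.01. The second Igf2 probe, which had no saturated spot, gave -0.50, -0.08 and -0.23. Ins2, the neighbouring insulin gene, had ratios of -0.01, -0.05 and -0.29 at a low level.

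**Figure D2:**
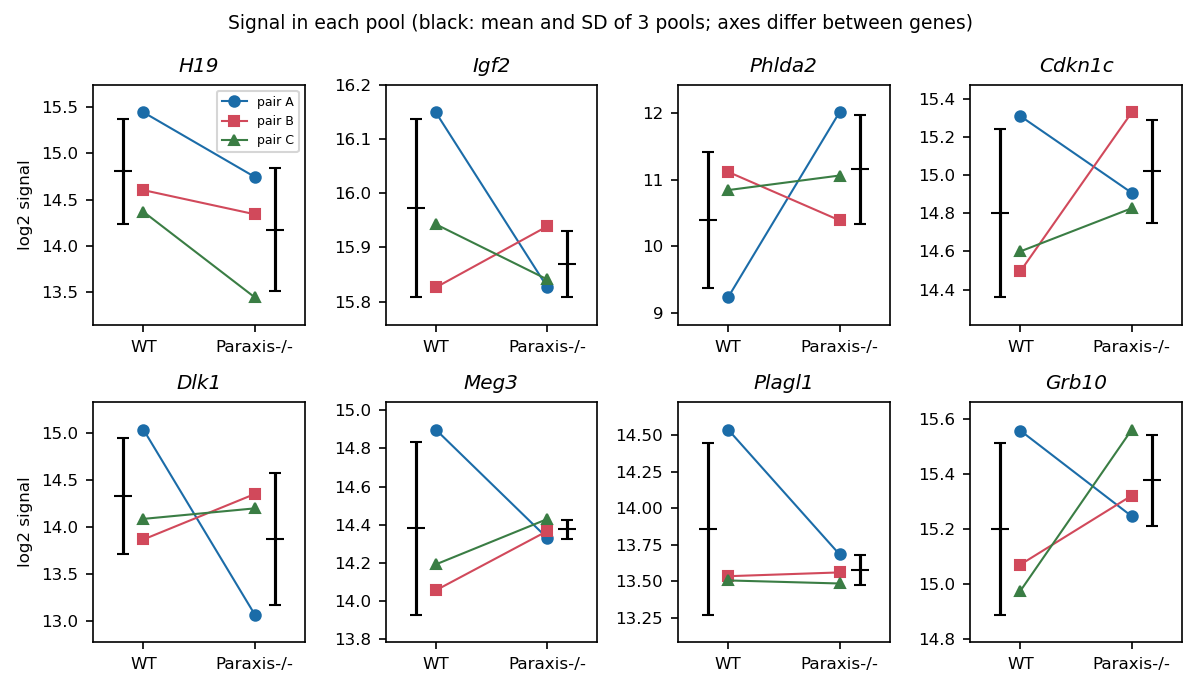
Log2 signal (y axis, scaled to each gene) of 8 imprinted genes in the WT and Paraxis-/- pool of each pair, joined by a line, with the mean and SD of 3 pools in black. H19 slopes down in all 3 pairs, whereas Phlda2, Cdkn1c, Dlk1, Meg3 and Grb10 slope one way in pair A and the other way in pair B.

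The Kcnq1 domain lies next to Igf2 and H19 on chromosome 7 and is silenced on the paternal copy by the noncoding RNA Kcnq1ot1. Kcnq1ot1 itself had a mean ratio of -0.03 and Kcnq1, a potassium channel, -0.11, with negative ratios in all 3 pairs. Cdkn1c, the cyclin-dependent kinase inhibitor p57, read 15.31, 14.50 and 14.60 in WT pools and 14.91, 15.33 and 14.83 in Paraxis-/- pools. Its ratios were -0.40, 0.83 and 0.23, so the pairs did not share a direction (mean 0.22, SE 0.24, n = 3 pairs, adjusted p = 0.96). Ascl2, a trophoblast transcription factor, stayed within 0.05 of 0 in every pair.

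Phlda2, which limits placental growth, had the widest range of all members. It read 9.24, 11.12 and 10.84 in WT pools and 12.01, 10.39 and 11.06 in Paraxis-/- pools. The WT pool of pair A was the lowest and its Paraxis-/- partner the highest, and the genotypes overlapped in the other pairs. The ratios were 2.77, -0.72 and 0.22, so the mean of 0.75 (SE 0.68, n = 3 pairs, adjusted p = 0.95) rested on pair A, where the difference was 6.81-fold. Without pair A the mean was -0.25. An overlapping second probe gave 2.36, -0.58 and 0.18. Slc22a18, a transporter gene whose probe lay 2.35 kb from that of Phlda2, read 7.18, 7.49 and 7.46 in WT pools and 7.77, 7.50 and 7.76 in Paraxis-/- pools. Every Paraxis-/- pool lay above every WT pool, by 0.01 in pair B (mean ratio 0.30, SE 0.13, n = 3 pairs, adjusted p = 0.95). Its other kept probe had a mean ratio of -0.03, so the probes differed.

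The summed signal of cell type markers in pair A was higher in the Paraxis-/- pool for some tissues and lower for others. Among markers of trophoblast, of which 4 of 9 were tested and Ctsq and Gcm1 were never above background, the summed log2 signal was 9.89, 9.66 and 9.65 in WT pools and 12.13, 9.72 and 9.82 in Paraxis-/- pools. The 4 genes did not go one way in pair A: the placental lactogen genes Prl3d1 and Prl3b1 had ratios of 3.61 and -0.60, and the transcription factors Elf5 and Hand1 had 0.62 and -0.05. In pairs B and C the ratios of Prl3d1 were 0.03 and 0.53.

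Among markers of yolk sac endoderm, of which 9 of 10 were tested and Ttr was never above background, the sum was 10.52, 11.64 and 11.98 in WT pools and 12.08, 12.55 and 12.15 in Paraxis-/- pools. The genes differed in size: 8 had a positive mean ratio and 1 a negative one, with a median of 0.18. Among all genes 48.3% were negative. Trf, Cubn and Hnf4a lay near 0, with means of 0.04, 0.03 and -0.02. Rbp4, a retinol carrier, had ratios of 1.42, 0.65 and 0.56. Afp, alpha-fetoprotein, read 6.44, 9.72 and 10.43 in WT pools and 10.79, 11.30 and 10.23 in Paraxis-/- pools. It was not well above background in the WT pool of pair A on either array, so its pair A difference has no exact size. Of the lipoprotein genes, Apoa1 was above background in 0 of 6 WT measurements, and Apob had ratios of 2.01 and 0.01 in pairs B and C. Apob had no value in pair A and is not in the sums of that pair. It was above background in 3 of 6 WT and 4 of 6 Paraxis-/- measurements. Its ratios rest on 3 arrays, so 1 of them comes from a single dye orientation.

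The other lists differed in direction. Surface ectoderm markers summed to 14.19 and 15.16 in the WT and Paraxis-/- pools of pair A and primitive blood markers to 17.30 and 17.59, both higher in the Paraxis-/- pool. In pairs B and C both sums were also higher there. The blood sum differed most in pair B, with 16.53 and 17.89, and in pair C it read 17.27 and 17.29. Neural tube markers summed to 13.86 and 13.52 in pair A and endothelial markers to 12.77 and 12.35, both lower in the Paraxis-/- pool. In pairs B and C both of these sums were higher in the Paraxis-/- pool.

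Markers of the dissected tissue also varied between pools. The 10 tested paraxial mesoderm markers other than Tcf15 summed to 15.79, 15.90 and 15.83 in WT pools and 16.10, 15.60 and 15.92 in Paraxis-/- pools, and in pair A 7 of them were higher and 3 lower in the Paraxis-/- pool. Tbx6, a transcription factor of presomitic mesoderm, read 10.03, 12.69 and 12.68 in WT pools and 12.46, 12.10 and 12.90 in Paraxis-/- pools. Like Phlda2, it was lowest in the WT pool of pair A, and its ratios of 2.43, -0.59 and 0.22 had the same signs as those of Phlda2. So did Dll1, a Notch ligand, with 0.66, -0.40 and 0.06 and Hes7, a gene of the segmentation clock, with 0.62, -0.16 and 0.06. Meox1, also on the list, had these signs too, with 0.31, -0.02 and 0.43. Other genes of the list did not: Lfng had 0.31, 0.09 and 0.29, Mesp2 0.02, -0.17 and -0.37, Uncx -0.63, -0.80 and -0.92, and Pax3 -0.70, -0.39 and -0.39. Tbx6, Dll1, Hes7, Meox1 and Mesp2 were singled out after their values were seen. The part of other tissues, or of the share of presomitic mesoderm, in the Phlda2 values was not tested.

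**Figure D3:**
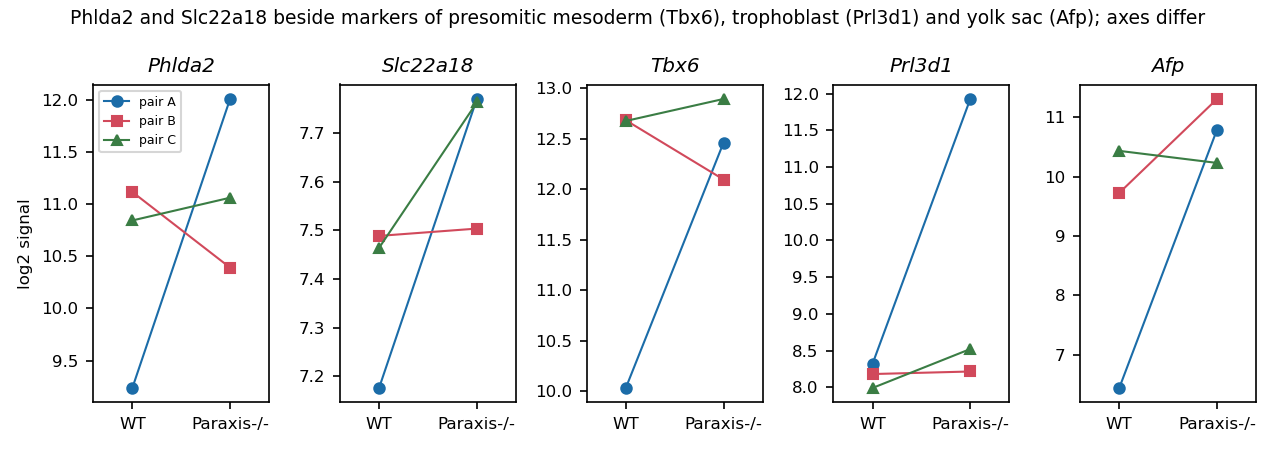
Log2 signal (y axis, scaled to each gene) of Phlda2, Slc22a18, Tbx6, Prl3d1 and Afp in the WT and Paraxis-/- pool of each pair, joined by a line. In pair A all 5 genes, picked from their lists, are higher in the Paraxis-/- pool, Afp from a WT level not well above background, and Phlda2 and Tbx6 both slope down in pair B.

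The Dlk1-Dio3 domain on chromosome 12 expresses Dlk1 and Dio3 from the paternal copy and the noncoding RNA Meg3 from the maternal copy. Dlk1, a membrane protein of the Delta family that holds back differentiation, read 15.04, 13.87 and 14.09 in WT pools and 13.07, 14.35 and 14.20 in Paraxis-/- pools. Pair A held both the highest and the lowest pool, a 3.92-fold difference, and pairs B and C went the other way. The ratios were -1.97, 0.48 and 0.11 (mean -0.46, SE 0.50, n = 3 pairs, adjusted p = 0.96). Without pair A the mean was 0.30. The other Dlk1 probe, at chr12:110698428-110698487 on the plus strand, gave -2.13, 0.50 and 0.06. Its sequence is given because 2 separate probes carry the pair A value.

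Dlk1 probe: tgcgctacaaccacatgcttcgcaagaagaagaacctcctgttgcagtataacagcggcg

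Meg3 read 14.90, 14.06 and 14.19 in WT pools and 14.33, 14.37 and 14.43 in Paraxis-/- pools. Only the WT pool of pair A stood apart, and the ratios were -0.57, 0.31 and 0.24 (mean -0.01, SE 0.19, n = 3 pairs). The gene has 5 kept probes, which the array design assigns to 2 RefSeq transcripts. Sequences follow in order along the plus strand, the first spanning chr12:110787974-110796459 and the last at chr12:110809678-110809737.

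Meg3 probe 1, NR_027652: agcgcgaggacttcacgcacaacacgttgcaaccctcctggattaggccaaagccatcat
Meg3 probe 2, NR_003633: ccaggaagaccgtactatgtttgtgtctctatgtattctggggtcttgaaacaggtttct
Meg3 probe 3, NR_003633: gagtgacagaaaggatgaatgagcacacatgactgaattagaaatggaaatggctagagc
Meg3 probe 4, NR_003633: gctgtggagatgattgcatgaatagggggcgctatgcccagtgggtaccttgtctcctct
Meg3 probe 5, NR_027652: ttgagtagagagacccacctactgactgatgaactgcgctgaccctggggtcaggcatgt

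All 5 probes were negative in pair A and positive in pair B. In pair C they split: the 2 probes of NR_027652 gave 0.21 and 0.24, and the 3 probes of NR_003633 gave between -0.85 and -0.47. Averaged over probes, the ratios of NR_027652 were -0.72, 0.36 and 0.22 and those of NR_003633 were -0.56, 0.19 and -0.60. The value for Meg3 therefore depends on the probe in pair C. The probes of NR_003633 also lie between the other 2 and gave weaker signals. They read 8.24, 9.36 and 11.42 in WT pools, beside 12.67 and 14.38 for NR_027652. Transcript, position and signal of the probes cannot be told apart here. Rian, another maternally expressed noncoding RNA of the domain, had ratios of -0.29, 0.17 and -1.43, and was singled out after its values were seen. Dio3, the deiodinase that inactivates thyroid hormone, gave 0.02, 0.41 and -0.91.

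**Figure D4:**
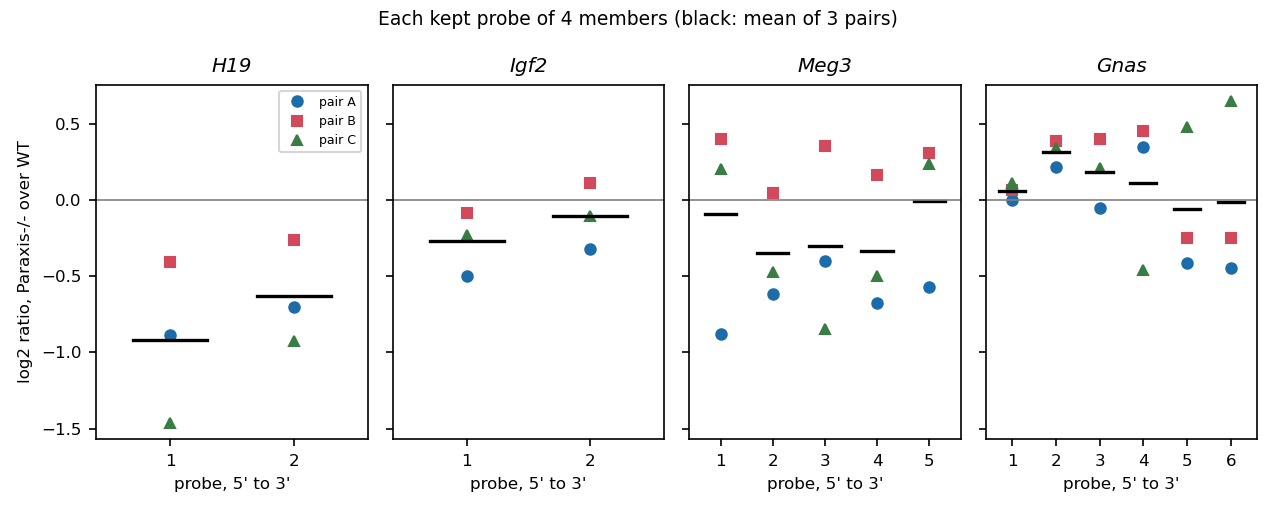
Log2 ratio of Paraxis-/- over WT (y axis) of every kept probe of H19, Igf2, Meg3 and Gnas, ordered 5' to 3' (x axis), in pairs A, B and C, with the mean of 3 pairs as a bar. Both H19 probes lie below 0 in all pairs, and in pair C the 3 middle Meg3 probes lie below 0 while the outer ones lie above it.

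Peg3, a zinc finger gene tied to growth and maternal behaviour, read 13.12, 12.11 and 12.16 in WT pools and 11.93, 12.24 and 12.00 in Paraxis-/- pools, with ratios of -1.19, 0.13 and -0.16 (mean -0.41, SE 0.27, adjusted p = 0.95, limma, n = 3 pairs). Plagl1, a transcription factor that raises the level of other imprinted genes, read 14.54, 13.53 and 13.51 in WT pools and 13.68, 13.56 and 13.48 in Paraxis-/- pools. Its ratios were -0.86, 0.03 and -0.02 (mean -0.28, SE 0.20, adjusted p = 0.95, limma, n = 3 pairs). The other kept probes had means of -0.41 and -0.12 for Peg3 and -0.11 for Plagl1. At the probe used, the WT pool of pair A alone was high for both genes, and the other pools overlapped. Peg10, a retrotransposon-derived gene, had ratios of -0.81, 0.32 and -0.09 and Usp29, a ubiquitin protease, -0.47, 0.42 and -0.37. Zim1, near the background, had -0.43, -0.02 and 0.10. Of the neighbours of Peg10, Sgce, a sarcoglycan, had a mean of -0.11 and Ppp1r9a, a neurabin, 0.00.

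Mest, a hydrolase-fold protein that marks mesoderm, read 16.81, 16.48 and 16.51 in WT pools and 16.36, 16.47 and 16.42 in Paraxis-/- pools. The ratios were -0.44, -0.01 and -0.09 (mean -0.18, SE 0.11, n = 3 pairs, adjusted p = 0.95). Its spot was saturated in both channels of both slide 1 arrays, so both values of pair A are lower bounds and whether the genotypes overlap is not known. With saturated spots left out, the mean of pairs B and C was -0.05.

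Grb10 and Igf2r restrain growth signals, Grb10 as an adaptor that blocks insulin and IGF receptors and Igf2r as the receptor that clears IGF2. Grb10 read 15.56, 15.07 and 14.97 in WT pools and 15.25, 15.32 and 15.56 in Paraxis-/- pools, so the highest values of both genotypes met. The ratios were -0.31, 0.25 and 0.59 (mean 0.18, SE 0.18, n = 3 pairs, adjusted p = 0.96). The other kept Grb10 probes had means of -0.04 and 0.04, and the mean over all its kept probes was 0.06. Igf2r read 13.20, 13.40 and 13.57 in WT pools and 13.33, 13.48 and 13.50 in Paraxis-/- pools, with a mean ratio of 0.05 (SE 0.07, n = 3 pairs, adjusted p = 0.98). Its pools overlapped fully. Of the IGF pathway beyond the imprinted genes, 23 of 25 listed genes were tested, none passed the adjusted p of 0.05 in limma, and their median ratio was -0.01. At an unadjusted p under 0.05 only Foxo1, a transcription factor held back by insulin signalling, was called, beside 5.01% of all genes. Its mean was -0.27 (adjusted p = 0.95). Shc1, an adaptor, had 0.22, the kinase Akt2 -0.38 and the IGF-binding protein Igfbp2 -0.29.

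The mouse cluster on chromosome 7 that corresponds to the human region lost or silenced in Prader-Willi syndrome had 6 tested members. Their median ratio was -0.07. They include Ube3a, the ubiquitin ligase of Angelman syndrome, classed as maternal, with a mean of 0.07. Ndn, necdin, read 11.99, 11.31 and 11.41 in WT pools and 11.51, 11.17 and 11.21 in Paraxis-/- pools. It was lower in the Paraxis-/- pool of all 3 pairs, while the genotypes overlapped across pairs (ratios -0.48, -0.15 and -0.21). The mean was -0.28 (SE 0.09, n = 3 pairs, adjusted p = 0.95). Magel2, a ubiquitin ligase partner, had a mean of 0.12, Mkrn3 -0.05 and Peg12 -0.08.

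Snrpn, which encodes a spliceosome protein, is shown with its probes because its ratio depended on the dye more than that of any other member. The arrays with Paraxis-/- in Cy5 and those with WT in Cy5 differed by -1.11 in its ratio, beside a median absolute difference of 0.14 for all genes. Averaged over the orientations, probe 2, the brighter one, gave 0.08, -0.40 and -0.05. Its probes, at chr7:67132347-67132406 and chr7:67132330-67132389 on the minus strand, share a stretch of 43 bases and differ within it at 2 positions, marked by capitals. Counted from the 5′ end of probe 1, these are A26G and G29A, with the base of probe 1 first.

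Snrpn probe 1: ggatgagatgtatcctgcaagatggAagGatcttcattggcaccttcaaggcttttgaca
Snrpn probe 2: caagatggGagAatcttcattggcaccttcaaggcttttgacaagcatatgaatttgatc

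Averaged in the same way, probe 1 gave 0.05, -0.48 and -0.09. Of the remaining single-gene members, Nap1l5, a nucleosome assembly protein, had ratios of 0.33, -0.10 and 0.23, with a mean of 0.15. Means were 0.04 for Zrsr1, a splicing factor, 0.03 for Slc38a4, an amino acid transporter, and -0.03 for Impact, a regulator of translation. Gnas, the stimulatory G protein with transcripts of differing imprint, had 8 probes, 6 of them kept. The brightest had ratios of -0.45, -0.25 and 0.65. The probe of AK047990, further upstream, was positive in all 3 pairs, with 0.22, 0.39 and 0.34. It read near the background, with means of 6.81 in WT and 7.12 in Paraxis-/- pools. In WT pools it was above background in 5 of 6 measurements. Among all genes, each at its brightest kept probe, 13.5% were positive in all 3 pairs. This Gnas probe was singled out after its values were seen.

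Split by the assigned class, 16 of 20 paternally expressed members had a negative mean ratio and 4 a positive one, beside 48.3% negative among all genes. Imprinting of the members in the dissected tissue was not tested. Of 12 maternally expressed members 5 were negative and 7 positive. The median was -0.11 for the paternal and 0.03 for the maternal members, a difference of -0.14, beside 0.00 for all genes. By pair, the paternal medians were -0.16, 0.02 and -0.08 and the maternal medians -0.17, 0.04 and 0.12. The paternal minus maternal difference was therefore 0.01, -0.02 and -0.20, and only pair C showed one of that size. In pair A, 14 of 20 paternal members were negative and 4 of them were at least 1.5-fold lower (20%, beside 2.19% of all genes in that pair). In pair B, 8 of 20 were negative and none reached that size. In pair C, 15 of 20 were negative and 1 reached it (5%, beside 2.08% of all genes). Of all genes, 51%, 45.4% and 50.9% were negative in these pairs. Of the 12 maternal members, 7, 4 and 5 were negative in pairs A, B and C. In pair A 2 of them, the neighbours Phlda2 and Slc22a18, were at least 1.5-fold higher (16.7%, beside 2.42% of all genes). Slc22a18 just passed, at 1.51-fold, and its other kept probe had a ratio of 0.04 there. In that pair 1, H19, was lower by that size (8.33%, beside 2.19% of all genes). In pair B 1 was higher and 1, Phlda2, lower by that size (8.33% each, beside 0.883% and 0.46% of all genes). In pair C 1 was higher and 1, H19, lower (8.33% each, beside 1.11% and 2.08%). Members share clusters and samples, so these counts are a description and no p was computed.

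**Figure D5:**
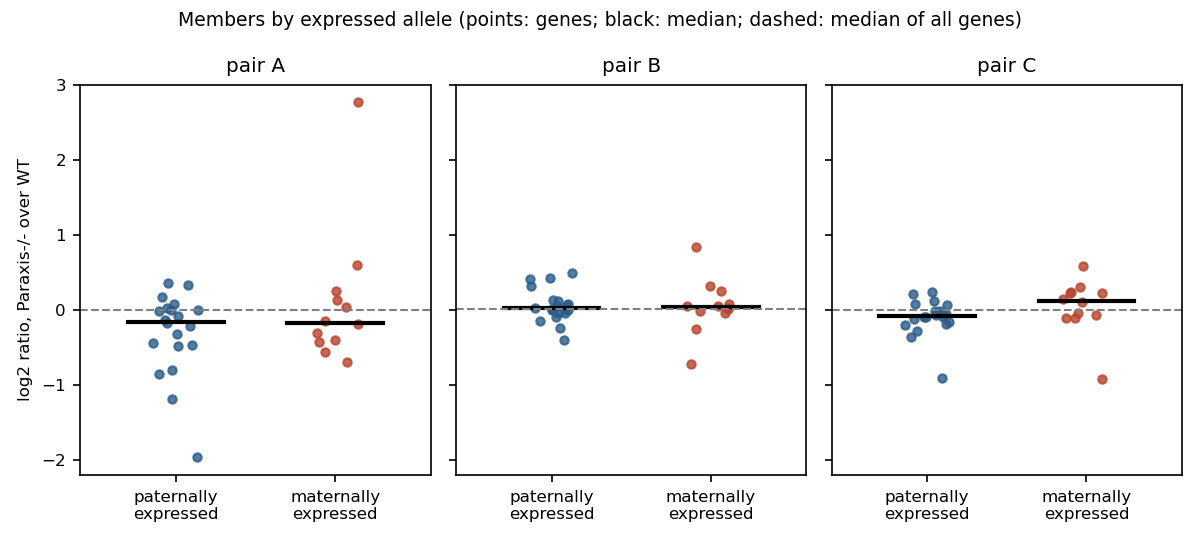
Log2 ratio of Paraxis-/- over WT (y axis) of the 20 paternally and 12 maternally expressed members (points) in each pair, with the median of each class as a bar and the median of all genes dashed. The bars lie side by side in pairs A and B and 0.20 apart in pair C.

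Of 37 other imprinted genes, outside the 36, 28 were tested, none passed the adjusted p of 0.05 in limma, and the median ratio was 0.00. At an unadjusted p under 0.05, 3 of the 28 were called, beside 5.01% of all genes in either direction. Cobl, an actin nucleator next to Grb10, read 7.93, 8.12 and 8.13 in WT pools and 8.52, 8.57 and 8.66 in Paraxis-/- pools. Every Paraxis-/- pool lay above every WT pool, as in 3.18% of all genes (mean ratio 0.52, SE 0.07, n = 3 pairs, adjusted p = 0.35). Ddc, the enzyme that makes dopamine and a further neighbour of Grb10, had 0.29, Pon2 -0.25 and Atp10a 0.16. Of 18 genes that set or keep imprints 17 were tested, none passed the adjusted p of 0.05 in limma, and the median ratio was 0.00. Dnmt3a, which methylates DNA de novo, had -0.31 and was the only one at an unadjusted p under 0.05 (adjusted p = 0.95), beside 5.01% of all genes. Dppa3 had 0.19, and the zinc finger proteins Zfp445 and Zfp57, which hold methylation at imprinted regions, -0.26 and -0.13.

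Paraxis belongs to a family of factors that bind E-boxes, spelled CANNTG, so the promoters of the members were searched for it (a palindromic motif, read on both strands). RefSeq starts (GRCm38.p6) were matched for 27 of the 36 members, with 43 promoters, taken as the 250 bases before the start. An E-box was found in 28 of the 43, or 65.1%, beside 66.2% of 32851 promoters of all genes. The promoters of Phlda2 and Dlk1, the members with the widest range between pairs, are given, with the E-box in capitals: Phlda2 has 1, CAGCTG, and Dlk1 has none in this window. The first lies at chr7:143502525-143502774 on the minus strand and the other at chr12:109452573-109452822 on the plus strand.

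Phlda2 promoter: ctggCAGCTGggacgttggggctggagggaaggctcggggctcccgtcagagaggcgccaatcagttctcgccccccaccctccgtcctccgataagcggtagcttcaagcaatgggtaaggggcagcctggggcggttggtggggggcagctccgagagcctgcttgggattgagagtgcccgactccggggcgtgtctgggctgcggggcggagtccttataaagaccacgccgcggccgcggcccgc
Dlk1 promoter: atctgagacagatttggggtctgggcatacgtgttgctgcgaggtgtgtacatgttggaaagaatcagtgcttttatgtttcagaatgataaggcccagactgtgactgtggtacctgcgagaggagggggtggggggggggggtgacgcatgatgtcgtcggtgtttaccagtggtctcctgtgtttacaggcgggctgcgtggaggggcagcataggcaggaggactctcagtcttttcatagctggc

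A match is a run of letters and not a site at which binding was measured.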

How the data were processed

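RNA of 3 WT and 3 Paraxis-/- pools was compared on 6 two-colour Agilent arrays, with 250 ng of RNA reverse transcribed per labelling and an RNA integrity number of at least 7.9 per the labels' protocols. Spot intensity of both channels was deposited by the authors as read by Agilent Feature Extraction, version 10.7.3.1 (slide 1) and 10.5.1.1 (slide 2) per the file headers. Version 8.5.1.1 is named in the submitters' processing notes. The deposited matrix holds log10 ratios of Cy5 over Cy3, which differed from the log10 ratios in the scanner files by at most 5e-11, and the median of each column is 0. Their number of arrays limits the precision.

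Median spot and local background intensities were corrected with normexp (offset 50) and normalized within arrays by loess. The tools were R (4.3.3), limma (3.58.1) and the data.table package, version 1.17.8. The 1639 control spots and the outlier spots (438 to 620 per array) had weight 0 in loess, and outlier spots were left out. Between 79 and 486 spots per channel were saturated on slide 1 and 0 on slide 2. Ratios were turned to Paraxis-/- over WT and the dye-swapped arrays of a pair averaged. Levels are log2 values after loess and Aquantile. Probes well above background in at least 4 of 6 measurements of either genotype were kept (28485 of 41174, and 65 of the 76 member probes), and the brightest kept probe stands for a gene. The 3 pair ratios of a gene were set against 0 by a two-sided moderated test (limma), and p-values were adjusted by Benjamini-Hochberg over 19391 genes, of which 67 had fewer than 3 pairs.

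Probe names are those of the first slide's files, updated through RefSeq (GRCm38.p6) for 26630 probes by accession, 5173 by symbol and 951 by synonym, with 8344 keeping the file's name. RefSeq coordinates are printed only for promoters, and probe positions are in mm9 per the file headers. The titles and descriptions disagree on the pools of 2 dye-swap arrays, and the titles were used. Deviations of arrays from the mean of their dye orientation were correlated across genes. Arrays sharing a pair gave r of 0.38, 0.62 and 0.61. Arrays of different pairs and opposite dye orientation gave -0.43 to -0.06. Deviations from a shared mean cancel out, which pulls the latter values downward. The pool levels were given for members with an unadjusted p under 0.05, a mean of at least 1.5-fold, a saturated spot or one of the 8 highest levels, and for Igf2, H19, Dlk1, Meg3, Cdkn1c, Igf2r, Grb10 and Mest, and from the other lists up to 4 genes with the smallest p were named. Names outside this rule, the pool levels of Peg3 and Slc22a18 among them, were chosen after their values were seen. The members and lists were chosen with earlier results of these data known.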

Additional observations from a re-analysis of the deposited data

How the results depend on the processing

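With 18 other settings, no imprinted gene passed the adjusted p of 0.05 under limma in any setting with a test. Of the 33 members, 12 kept the sign of their mean ratio in the 17 settings that average arrays or pairs, and 21 did not in at least 1 of them. H19 lay between -0.81 and -0.48 and Ndn between -0.34 and -0.18. Median centring in place of loess changed the sign of 8 of the 33 members. Of the paternal members it turned Peg12 to 0.0169, Kcnq1ot1 to 0.0592, Igf2 to 0.0148 and Impact to 0.0717. Leaving out pair A changed the sign of 13 of the 33. Slide 1 alone, which is pair A, gave -0.40 for Cdkn1c and -0.31 for Grb10. The cause was not tested. The paternal median was -0.0061 within slide 2 alone, which leaves out pair A, and lay between -0.14 and -0.0061 when a pair was left out. The maternal median lay between -0.01 and 0.02 when a pair was left out, and the paternal minus maternal difference, -0.14 with all pairs, between -0.13 and -0.03, the latter without pair A. Median centring gave a paternal median of -0.04 and a maternal median of 0.13. On slide 1 alone the maternal median was -0.17 and the paternal minus maternal difference 0.0131. The count of all genes past the threshold, 6, was 21 with scaling between arrays (5 higher and 16 lower, against 3 and 3), 85 with the slide as a block and 2 within slide 2 alone. It lay between 0 and 3 when a pair was left out, so that with pair B left out no gene passed in limma, with 722 at an unadjusted p under 0.05. With the 6 arrays as the unit it was 76 with the pair as a replicate block (correlation 0.19) and 96 without the block, and no member passed in either. No scaling moved the median of all genes by over 0.1. The 3 pairs, the pooling of embryos, the saturated spots of slide 1 and the tie of pair A to its slide limit these values.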

Other observations

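Imprinted genes on chromosome 2 share their chromosome with Tcf15, and those nearest to it were Mcts2, at 0.54 Mb, and H13, at 0.56 Mb between probe positions in mm9. Mcts2 had ratios of 0.16, 0.27 and -0.08 in pairs A, B and C, and H13 had -0.07, -0.06 and -0.64. Nnat, a neuronal membrane protein 5.41 Mb away, had -0.39, 0.01 and -0.39, and its neighbour Blcap had a mean of 0.04. None of them passed the adjusted p of 0.05 in limma, and none had an unadjusted p under 0.05.

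Asb4, an imprinted gene near Peg10, and Igfbp5, an IGF-binding protein, had the signs of Dlk1 in the 3 pairs. Asb4 read 11.86, 11.45 and 11.43 in WT pools and 10.83, 12.08 and 11.91 in Paraxis-/- pools, with a mean ratio of 0.03. Igfbp5 had ratios of -0.39, 0.90 and 0.95, with a mean of 0.48 (limma adjusted p = 0.95). Both genes were singled out after their values were seen.

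The transcription starts of Peg3 and Usp29 face away from each other and lie 164 bases apart in GRCm38.p6. At the brightest probe of each, the mean ratios were -0.41 and -0.14, and both were negative in pairs A and C and positive in pair B. The other kept probes shared only the negative sign in pair A. Those of Peg3 gave -1.31, -0.09 and 0.16, and -0.23, -0.04 and -0.11. That of Usp29 gave -0.28, 0.10 and 0.02.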
